A study of Mus musculus with 8 samples.

Results

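A set of 3573 sites of accessible chromatin was listed in both libraries of the DNCHD4 line, without and with tetracycline, and in none of the other 6 libraries of the series. DNCHD4 is a line of mouse mammary epithelial cells with an inducible dominant-negative form of the chromatin remodeler Chd4. Hotspots of all 8 libraries were merged into 1 site wherever they shared at least 1 bp, and a site was kept when both DNCHD4 lists and no other list held it. The sites made up 8.79% of the 40670 sites listed in both DNCHD4 libraries (95% Wilson interval 8.51% to 9.06%) and 3.57% of the 99999 merged sites of the series. The sites were thus chosen by their presence in lists that begin at a certain peak density, the highest tag density within a hotspot, so the densities that follow describe the sites and test nothing.

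Chd4 drives NuRD, a chromatin complex that joins nucleosome remodeling with histone deacetylation and is best known for repressing genes and limiting access to regulatory DNA. In DNase-seq, DNase I cuts chromatin in isolated nuclei where nucleosomes are displaced, and the released short fragments are sequenced. A hotspot is a region where such fragments pile up, and it marks promoters, enhancers and other regulatory DNA that is open in at least some of the cells.

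The cells belong to 3134, an epithelial line from mouse mammary gland that itself came from a subclone. The DNCHD4 line carried FLAG-tagged mouse Chd4 with lysine 250 changed to cysteine, in a retroviral vector integrated into 3134 cells that hold the tetracycline transactivator. The DNBrg1 line carried a dominant-negative Brg1, an ATPase of the SWI/SNF complexes, whose construct is not described in the labels. The DNSnf2h line carried FLAG-tagged human Snf2h, an ATPase of the ISWI complexes, with lysine 211 changed to arginine, made in the same way as DNCHD4. The parental 3134 line was measured alongside the 3 dominant-negative lines. Each line was plated for 48 h without or with tetracycline in medium with charcoal-dextran treated serum. Tetracycline, kept at 5 µg/ml during culture, represses the dominant-negative protein, and its removal induces it. Induced cells still have their own Chd4, Brg1 and Snf2h genes, and the labels do not say whether a line is a single clone. Each of the 8 groups has 1 library, so differences between groups are described without replicate error and without p-values.

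The 8 lists differ in length and in the density at which they begin. The DNCHD4 lists were the longest, with 78093 hotspots without and 48888 with tetracycline, against 24890 to 35083 in the other 6. They also reached low densities: the lowest peak density listed, called the floor here, was 5.09 (26 tags) in DNCHD4 cells without and 8.05 (45 tags) with tetracycline. Among the other lists without tetracycline the floors were 10.04 in the parental line, 9.19 in DNBrg1 and 8.06 in DNSnf2h. With tetracycline they were 13.0 in the parental line, 16.4 in DNBrg1 and 8.03 in DNSnf2h. A site missing from a list may lie under that list's floor or may have been left out for another reason, and its absence is not evidence of closed chromatin. Gaps in the lists' running numbers show that some hotspots were left out. Whether these were left out for their density or for another reason was not tested. The density scale also differs: at the sites listed in all 8 libraries, the median log2 density over that of the DNCHD4 library of the same tetracycline state was -0.35 in parental, -0.77 in DNBrg1 and -1.96 in DNSnf2h cells without tetracycline. With tetracycline it was -0.08, -0.17 and -2.01 in the same order of lines. Results are given on the deposited scale and, where named as centred, with these medians set equal.

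The sites found only in DNCHD4 cells were weak hotspots. Without tetracycline their peak density ran from 5.09 to 138 with a median of 11.8 (quartiles 9.40 and 15.9), and with tetracycline from 8.05 to 60.6 with a median of 10.7 (quartiles 9.12 and 12.9). The sites that were also listed in at least 1 other library had medians of 31.1 and 31.7, well above those of the sites found only in DNCHD4 cells. Both member medians correspond to 60 tags, for which counting error alone is 12.9%. With tetracycline 1503 of the 3573 sites (42.1%) lay within 1.25 times the floor of the DNCHD4 list, against 4.83% of the sites listed elsewhere too. Without tetracycline 115 sites (3.22%) did, against 0.345%.

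The height of a DNCHD4 site followed how widely it was listed. Sites of both DNCHD4 libraries with 0, 1, 2, 3, 4, 5 and 6 other lists numbered 3573, 3829, 4209, 4394, 6875, 5198 and 12592. Their median density without tetracycline was 11.8, 13.7, 15.9, 18.996, 27.0, 37.0 and 87.1, and with tetracycline 10.7, 12.5, 15.4, 18.96, 26.1, 40.3 and 91.2. The sites found only in DNCHD4 cells thus form the low end of a continuous gradient and are not separated from the rest by a gap in density.

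Read by height, the share of DNCHD4 sites that no other library listed was 54.2% at a geometric mean density under 10 (1100 of 2028 sites), and it declined at each step up. It was 35.8% from 10 to 12, 20.7% from 12 to 15, 8.004% from 15 to 20 and 1.61% from 20 to 30. From 30 to 50 it was 0.151% (10 of 6634 sites), and at 50 or more it was 0.00819% (1 of 12214 sites). Tall hotspots of the DNCHD4 line were thus almost always listed in another line or state as well.

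**Figure D1:**
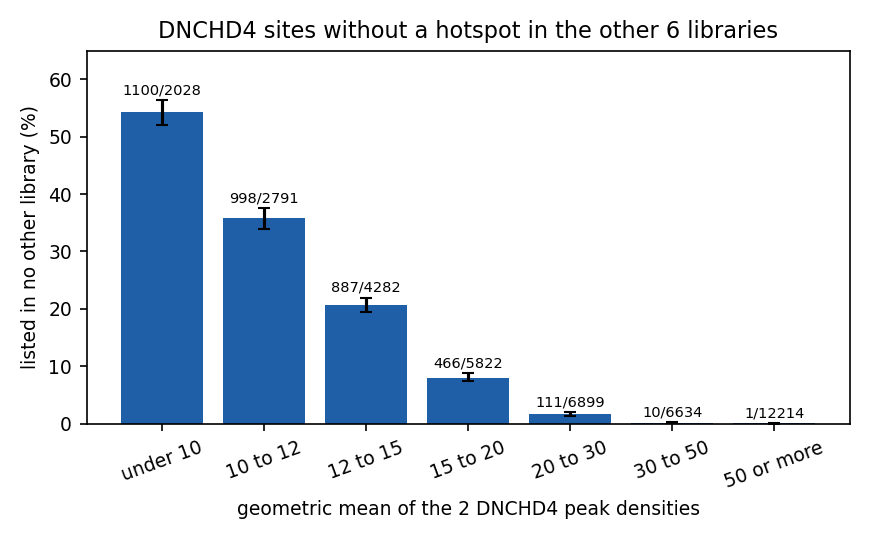
Share of the sites listed in both DNCHD4 libraries that no other library listed (y axis, %), by the geometric mean of their 2 DNCHD4 peak densities (x axis). Bars are shares, lines are 95% Wilson intervals and the counts are above each bar; the share is 54.2% under a density of 10 and 0.00819% at 50 or more.

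Against the floors of the other lists, the tetracycline states gave different pictures. Without tetracycline, 2404 of the 3573 sites (67.3%) reached the parental floor, 2755 (77.1%) the DNBrg1 floor and 3075 (86.1%) the DNSnf2h floor, so on the deposited scale most would have been tall enough to be listed there at the DNCHD4 height. With tetracycline, 868 (24.3%) reached the parental floor and 276 (7.72%) the DNBrg1 floor, while all 3573 reached the DNSnf2h floor. With tetracycline the median site stood at 0.824 times the parental floor and 0.654 times the DNBrg1 floor, below what those lists could show. On the centred scale the shares were lower in every list: 41.8% for parental, 25.7% for DNBrg1 and 1.90% for DNSnf2h without tetracycline, and 18.3%, 3.75% and 0.0560% with it. For DNSnf2h the 2 scales gave opposite pictures, with most or all sites above its floors as deposited and few on the centred scale.

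**Figure D2:**
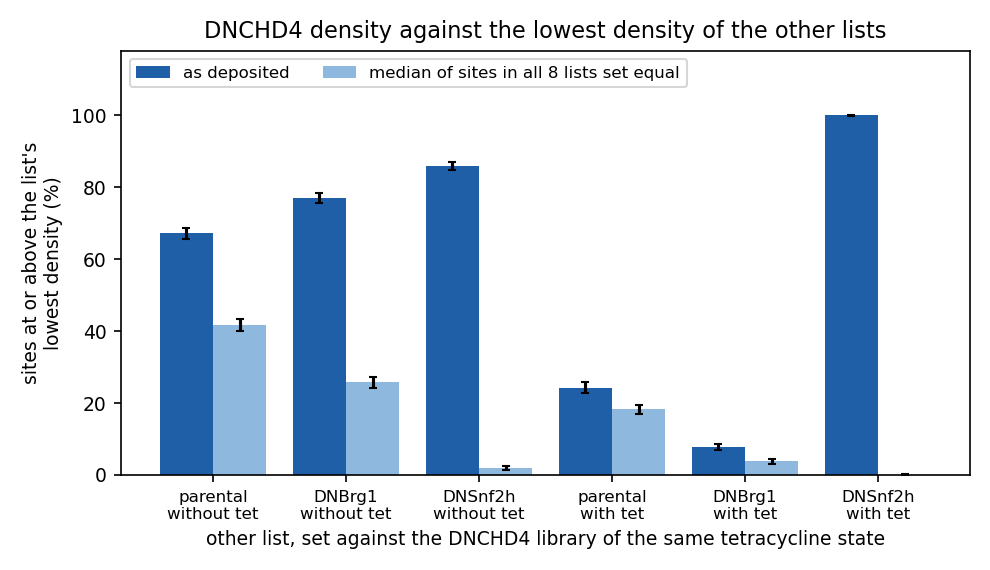
Share of the 3573 sites whose DNCHD4 peak density reaches the lowest density of another list (y axis, %), for each of the 6 other lists (x axis), with the DNCHD4 library of the same tetracycline state. Dark bars use deposited densities and light bars densities with the median of the sites in all 8 lists set equal, with 95% Wilson intervals; the dark bars run from 7.72% for DNBrg1 with tetracycline to 100% for DNSnf2h with tetracycline.

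Few sites stood above all floors at once. Both DNCHD4 densities were at or above every floor of their own tetracycline state at 242 sites (6.77%, against 70.1% of all sites listed in both DNCHD4 libraries), and at 2 sites (0.0560%, against 37.6%) on the centred scale. At the other end, 1135 sites (31.8%) lay under at least 1 floor of the same state in both DNCHD4 libraries, against 3.62% of the DNCHD4 sites listed elsewhere. Both densities reached 16.4, the highest floor of all, at 145 sites (4.06%, against a background of 63.0% of all sites listed in both DNCHD4 libraries). Both were at least 2-fold above it at 2 sites (0.0560%, background 36.8%), and 0 sites passed on the centred scale.

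Without tetracycline the margin was larger. There, 396 sites (11.1%, background 63.7%) were at least 2-fold above all 3 floors of the other lists without tetracycline, and 3 were on the centred scale. With tetracycline 2 sites (0.0560%, background 44.3%) were 2-fold above the floors of the 3 other lists with tetracycline. Counted outside dense clusters, which are stretches with 10 or more hotspots of 1 list within 50 kb, and with no number missing from the other lists' running count at their position, 88 of the 396 remained. Of these, 9 were also 2-fold above the lowest density that each other list without tetracycline held within 50 kb. No background share over all DNCHD4 sites was computed for the 88 and the 9.

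The tallest sites of the set lay in crowded regions. On mm9 chromosome 11, chr11:3025256-3025865 had a density of 138 without and 60.6 with tetracycline, the highest of the set in both libraries, and was 2.28-fold higher without tetracycline (exact binomial interval on tags 2.00 to 2.60). Nearby, chr11:3102024-3102597 had 48.8 without and 46.9 with tetracycline, a ratio of 1.04 (0.871 to 1.24). These are the 2 sites 2-fold above every floor, and both stand among 32 and 36 hotspots of 1 list within 50 kb. Around them the lowest density listed by another library reached 49.5 without tetracycline and 75.6 and 63.9 with it, so with tetracycline both sites were under the highest floor of their neighbourhood, though above the lowest, 33.99. Without tetracycline the first was above the highest local floor and the second just under it.

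On chromosome 10, chr10:79880894-79881579 had a density of 57.2 without and 24.5 with tetracycline (2.33-fold, interval 1.90 to 2.88). Within the same stretch chr10:80011215-80011842 had 61.7 without and 19.7 with tetracycline (3.13-fold, 2.51 to 3.93). Both lie in dense clusters with 31 and 39 all-8 sites, meaning sites listed in all 8 libraries, in their 1 Mb window, and no list has a number missing at either. On chromosome 11, chr11:117156391-117157098 had 38.4 without and 26.3 with tetracycline (1.46-fold, 1.17 to 1.82) and lay 649 bp from the nearest hotspot of another list, also in a dense cluster.

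The one of the 6 tallest outside a dense cluster was chr2:93245015-93245638, with a density of 80.5 without and 13.95 with tetracycline. Its ratio of 5.77 (interval 4.52 to 7.45) was the largest of the named sites. The nearest hotspot of another list was 11.3 kb away, and within 50 kb those lists began at up to 10.8 without and 17.7 with tetracycline, so the site was above its local floors without tetracycline and under the highest of them with tetracycline. In 5 of the 6 other lists a number is missing at its position, so whether a hotspot there was called and then removed was not tested.

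**Figure D3:**
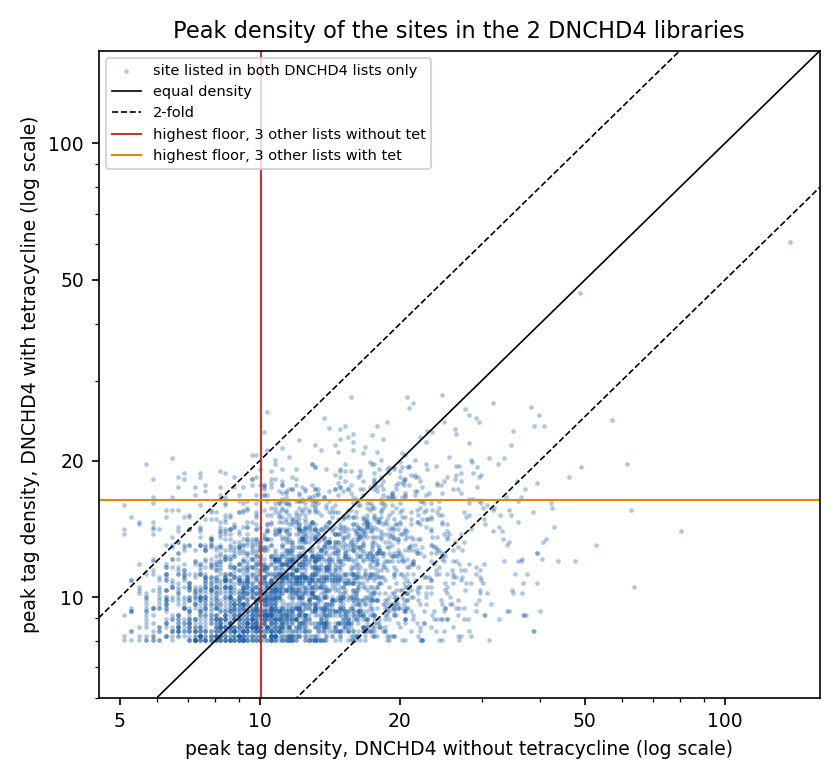
Peak density of the 3573 sites in DNCHD4 cells without tetracycline (x axis, log scale) and with tetracycline (y axis, log scale), 1 point per site, with the lines of equal density and of a 2-fold ratio. The red line is the highest floor of the 3 other lists without tetracycline (10.04) and the orange line that of the 3 with tetracycline (16.4); most points lie below the orange line, and the point at 138 and 60.6 stands alone.

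Removing the unequal floors leaves a smaller and different set. When every list was read from a density of 16.4 up, 579 of 25627 sites (2.26%) were held by both DNCHD4 lists alone, of which 145 belong to the 3573 and 434 had a weaker hotspot in another library. With the scales centred as well, every list began at the level of the DNSnf2h floor without tetracycline, which is a density of 31.6 in DNCHD4 cells without and 32.9 with tetracycline. Then 21 of 15183 sites (0.138%) were held by both DNCHD4 lists alone, of which 2 belong to the 3573, the pair on chromosome 11 at 3.0 to 3.1 Mb. All of the other 19 were listed in parental cells with tetracycline, at densities of 17.98 to 31.0, and 18 of them also in parental cells without tetracycline. None was listed in either DNSnf2h library, but the setting brings this about and it describes nothing about the sites. The common level is the DNSnf2h floor without tetracycline, so any hotspot of that list excluded its site. The DNSnf2h floor with tetracycline lies just under that level on the centred scale. An example of the 19 sites is chr5:139486472-139487180, with 37.2 in both DNCHD4 libraries and 23.9 in parental cells with tetracycline, the only other list that held it.

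The DNSnf2h lists set that high common level, and setting them aside raised the count. Against the parental and DNBrg1 lists, with all lists read from the highest centred floor of the 6 up, 258 of 23743 sites (1.09%) were held by both DNCHD4 lists alone, 66 of them among the 3573. With the parental lists as the sole reference, the count was 800 of 29627 sites (2.70%) on the centred scale, with 422 among the 3573, and 1299 of 30245 (4.29%) as deposited, with 513 among the 3573. In these sets the median log2 ratio of density without over with tetracycline was 0.06, 0.15 and 0.17, and 2.71%, 5.63% and 6.31% of the sites were at least 2-fold higher without tetracycline.

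Across the 3573 sites the induced state was slightly higher on the deposited scale. The median log2 ratio of peak density, DNCHD4 without over with tetracycline, was 0.13 (order-statistic interval 0.10 to 0.15; SD over sites 0.56; quartiles -0.22 and 0.49), against 0.02 (SD 0.69) at the DNCHD4 sites listed elsewhere too. The ratio was above 0 at 2153 sites (60.3%), against 51.6% of the others. Sites are not replicates, and the interval does not cover the difference between 2 cultures. In tags the medians were 60 in both libraries, and a tag was worth 0.196 without and 0.179 with tetracycline. The median ratio of 0.13 thus depends on the deposited scale, whose target is not given. The floor of the DNCHD4 list with tetracycline is the higher one and bounds the ratio from above at low densities without tetracycline; with both densities at 8.05 or more the median was 0.21.

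Among the sites, 254 (7.11%) were at least 2-fold higher without tetracycline, beside a background of 5.93% of all sites in both DNCHD4 lists. At least 2-fold lower were 58 (1.62%, background 7.87%). Over all heights the share of higher sites is thus close to the background, while lower sites were fewer. At equal height the higher share was 0.701%, against 0.669% of sites listed elsewhere too, at a geometric mean of 10 to 12. From 15 to 20 it was 20.6%, against 8.78%. The choice of the sites bears on the lower count, because lower sites are taller with tetracycline, where the other lists begin at up to 16.4. The lower count depended on the processing: it was 152 with mean densities and 11 with both densities at 8.05 or more. Sites with exactly 1 other list were intermediate in the lower direction, with 332 (8.67%) higher and 169 (4.41%) lower, and had the same median log2 ratio of 0.13. Their median was 70 tags in both DNCHD4 libraries. Counting error covered most single ratios: the exact interval on tags held 1 at 2397 sites (67.1%), lay above 1 at 854 (23.9%) and below 1 at 322 (9.01%). The whole interval lay above 2-fold at 66 sites and beyond 2-fold lower at 4. These intervals were computed for the set alone, so the counts have no background and do not mark the set off from other DNCHD4 sites.

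The 254 higher sites had densities of 16.5 to 138 without tetracycline (median 24.7) and 8.05 to 60.6 with it (median 9.66), so their lower value was mostly next to the DNCHD4 floor. The 58 lower sites had 5.09 to 10.4 without tetracycline (median 6.66) and 10.9 to 25.6 with it (median 15.7). Every lower site was thus weak in the induced cells, at about the floor of the parental list without tetracycline or under it.

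To name sites where neither value is next to its floor, ratios were ranked among the 593 sites whose lower value was at least 2 times the floor of its own library. The highest ratios there were those of chr10:80011215-80011842, chr4:135666254-135666925, chr10:80402238-80402931, chr10:79880894-79881579 and chr11:3025256-3025865. Of these, chr4:135666254-135666925 had a density of 49.2 without and 19.3 with tetracycline (2.54-fold, interval 2.02 to 3.22), and chr10:80402238-80402931 had 46.2 without and 18.4 with tetracycline (2.51-fold, 1.98 to 3.19). All 5 lie in dense clusters, and 3 of them lie close together on chromosome 10.

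The lowest ratios had less crowded surroundings, but these sites were also less tall. Their geometric mean densities were 14.7 to 16.3, against 29.2 to 91.6 for the 5 highest ratios, so crowding was not compared at equal height. The first was chr6:143792760-143793470, with a density of 10.4 without and 25.6 with tetracycline, a ratio of 0.406 (interval 0.290 to 0.560). Next came chr14:34168317-34168964 with 10.2 and 23.1 without and with tetracycline (0.441, 0.313 to 0.613), the one of the 5 in a dense cluster. The third, chr7:139639140-139639730, had 10.4 without and 21.1 with tetracycline (0.492, 0.349 to 0.685). On chromosome 8, chr8:34783329-34783951 had 11.2 and 21.3 in that order (0.524, 0.375 to 0.725), and chr8:49865888-49866536 had 10.8 and 20.04 (0.538, 0.382 to 0.749). These 5 were at most 1.56 times the highest floor of the other lists with tetracycline, and each has a number missing at its position in 1 to 6 other lists.

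Typical sites of the set were small in both states. The 3 whose geometric mean was nearest to the median of the set were chr18:53831500-53832101, with a density of 9.40 without and 13.8 with tetracycline, chr8:63344184-63344812, with 10.97 and 11.8, and chr17:67614011-67614575, with 8.62 and 15.03. In tags these are 48 and 77, 56 and 66, and 44 and 84, so the intervals of the ratio were wide: 0.466 to 0.991, 0.639 to 1.35 and 0.389 to 0.835.

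The ratio moved with the height of the sites. At a geometric mean density under 10 the median log2 ratio of the sites was -0.12, against -0.17 for DNCHD4 sites of the same height listed elsewhere. From 10 to 12 it was 0.13, against -0.00, from 12 to 15 it was 0.28, against 0.05, and from 15 to 20 it was 0.46, against 0.03. From 20 to 30 it was 0.68 over 111 sites, against 0.01 over 6788. The share at least 2-fold higher without tetracycline was 0.701% (others 0.669%) from 10 to 12, 11.8% (6.54%) from 12 to 15, 20.6% (8.78%) from 15 to 20 and 36.0% (9.07%) from 20 to 30. Under 10 no site of either kind was 2-fold higher, as the DNCHD4 floor of 8.05 with tetracycline caps the ratio there. This cap eases with height in both kinds of sites, so a rise with height is partly built in. Taller sites of the set thus leaned toward the induced state, and sites of equal height that were listed elsewhere did not. The choice of the sites bears on this ratio: the other lists with tetracycline begin at up to 16.4 and those without at up to 10.04, and the part of these floors in the lean was not tested.

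**Figure D4:**
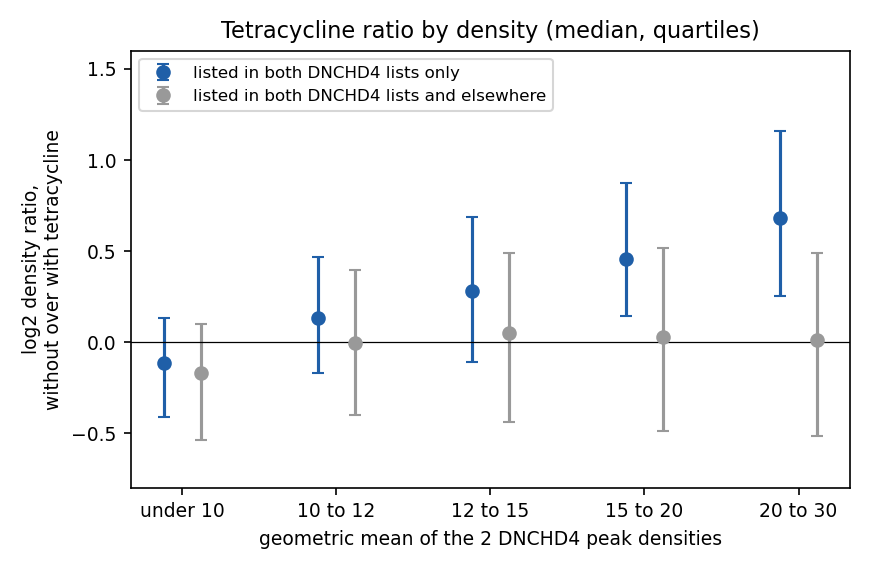
Median log2 ratio of peak density, DNCHD4 without over with tetracycline (y axis), by the geometric mean of the 2 densities (x axis), for the sites found only in DNCHD4 cells (blue) and for DNCHD4 sites also listed elsewhere (grey). Lines are quartiles over sites; the blue medians run from -0.12 under a density of 10 to 0.68 from 20 to 30, and the grey ones from -0.17 to 0.05.

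Sites just outside the set were much like those inside. The 3829 DNCHD4 sites with exactly 1 other list had a density there of 1.22 times that list's floor in the median. In 2060 of them (53.8%) it was under 1.25 times the floor, and in 129 it was 2 times the floor or more. The only other list was parental with tetracycline at 1188 sites, parental without at 1031, DNBrg1 without at 658, DNSnf2h with at 373, DNBrg1 with at 360 and DNSnf2h without at 219. The smallest overlap that kept a site out was 4 bp, at chr10:31254302-31255298, with a density of 6.85 without and 10.02 with tetracycline in DNCHD4 and 8.67 in DNSnf2h cells without tetracycline.

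Some sites entered the set by a few bases. The site chr4:33553972-33554557, with a density of 17.4 without and 8.41 with tetracycline, lay 5 bp from a DNSnf2h hotspot with tetracycline of density 8.59. The site chr2:35295877-35296522, with 9.60 and 14.7, lay 8 bp from a DNSnf2h hotspot without tetracycline of density 8.67. The site chr14:47440910-47441539, with 17.6 and 9.12, lay 9 bp from a parental hotspot without tetracycline of density 23.9, which is 2.38 times that list's floor. A hotspot of another list lay within 150 bp of 121 sites (3.39%) and within 1 kb of 567 (15.9%). The same shares were 3.73% and 16.8% at DNCHD4 sites with exactly 1 other list. They were 3.97% and 18.8% at those listed in at least 1 but not all other libraries, so such closeness is not particular to the set.

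In shape the sites were single, narrow hotspots that coincided in both libraries. The hotspots were 507 bp wide in the median without tetracycline (quartiles 440 and 576 bp) and 531 bp with it (469 and 591 bp), against 686 and 722 bp at DNCHD4 sites listed elsewhere. At equal geometric mean density the widths without tetracycline were alike: from 10 to 12 both sets had 502 bp, and from 15 to 20 they had 573 and 580 bp. With tetracycline the sites stayed narrower at equal geometric mean density, with 522 against 555 bp from 10 to 12 and 538 against 615 bp from 15 to 20. Their height with tetracycline was lower there too, at 10.4 against 10.9 and 14.3 against 17.2 in the median, so these widths do not compare hotspots of equal height in that library. The centres of the 2 DNCHD4 hotspots were 40 bp apart in the median, against 35 bp elsewhere, and they overlapped by under 50% of the shorter one at 32 sites (0.896%). The mean density within a hotspot was 29.9% of the peak without and 29.8% with tetracycline, against 28.1% and 28.4% elsewhere.

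Along the genome and over all heights, the sites lay about as far from the shared hotspots as the DNCHD4 sites with exactly 1 other list. The nearest all-8 site was 39.9 kb away in the median (quartiles 11.96 and 104.7 kb), and 801 sites (22.4%, 21.1% to 23.8%) had one within 10 kb. With exactly 1 other list the median was 35.6 kb and the share 23.0% (21.7% to 24.4%). For DNCHD4 sites listed in at least 1 but not all other libraries the median was 29.5 kb and the share 26.5%. Sites of the DNCHD4 list without tetracycline alone stood farther off (10.6% within 10 kb) and those of the list with tetracycline alone nearer (28.2%). At equal density the share was higher among the sites in each range, set against DNCHD4 sites listed in some but not all other libraries. Under 10 it was 16.1% (14.04% to 18.4%), against 11.1% (9.24% to 13.3%), from 10 to 12 it was 19.5%, against 16.9%, and from 12 to 15 it was 23.9%, against 21.4%. From 15 to 20, 34.1% (29.96% to 38.5%) of the sites had an all-8 site within 10 kb, against 25.5% (24.3% to 26.7%), and from 20 to 30 it was 46.8% (37.8% to 56.1%), against 29.8% (28.7% to 31.0%). From 10 to 15 the intervals overlap. These intervals cover counting error over sites and not differences between cultures.

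In windows of 1 Mb, the share of the sites among DNCHD4 sites ran in opposite directions over all densities and at a density of 10 to 15. Over all densities they made up 12.9% of the DNCHD4 sites in windows with 0 to 2 all-8 sites, 10.95% with 3 to 5, 9.06% with 6 to 10, 6.88% with 11 to 20 and 5.14% with more than 20. At a density of 10 to 15 they made up 21.9%, 25.8%, 26.1%, 30.7% and 33.5% over the same classes, and at 15 or more 0.955%, 1.36%, 1.68%, 2.18% and 2.89%. The range of 15 or more is wide and does not match heights closely. Under 10 the sites made up 47.4%, 56.6%, 57.5%, 56.7% and 57.1%, with little change after the first class. Across these classes their median log2 ratio was -0.06, 0.07, 0.10, 0.22 and 0.32, while that of other DNCHD4 sites stayed between -0.00 and 0.05. Their median density differed too, at 9.98 in the emptiest and 15.3 in the fullest windows. At a density of 10 to 15 the ratio was flat over the classes, at 0.21, 0.22, 0.15, 0.22 and 0.19. Under 10 it differed between the classes, at -0.29, -0.14, -0.07, 0.10 and 0.04 (275, 332, 337, 144 and 12 sites), and other DNCHD4 sites under 10 had -0.30, -0.20, -0.12, -0.04 and 0.24.

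The sites were spread over 1492 windows, and 150 windows held 5 or more. The most, 11 of 61 DNCHD4 sites, lay on chromosome 8 from 97 to 98 Mb, where 10 of the 11 had a log2 ratio above 0, with a median of 0.53 against -0.09 at the other DNCHD4 sites of the window. There the 11 densities ran from 9.40 to 35.8 without and from 8.05 to 21.6 with tetracycline. Next came 9 sites each on chromosome 15 from 73 to 74 Mb, chromosome 8 from 108 to 109 Mb, chromosome 9 from 57 to 58 Mb and chromosome 11 from 77 to 78 Mb, with median log2 ratios of 0.07, 0.53, 0.04 and 0.52. The other DNCHD4 sites of these windows had medians of -0.17, 0.16, 0.13 and 0.09 in the same order. Of the 9 sites in each, 8 were above 0 on chromosomes 8 (108 to 109 Mb) and 11, and 5 on chromosomes 15 and 9. Over all 3573 sites the share above 0 was 60.3%. The windows were picked as the fullest, and their sites were not compared with others of equal height.

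By chromosome, the share of DNCHD4 sites that no other library listed was highest on chromosomes 18 (12.2%, interval 10.5% to 14.2%) and 14 (11.6%, 10.04% to 13.4%) and lowest on chromosomes 17 (6.68%) and 19 (6.75%). At a density of 10 to 15 the order changed in part: chromosome 18 stayed highest at 34.2% (28.4% to 40.4%) and chromosome 19 lowest at 19.3% (14.5% to 25.2%), but chromosome 14 had 26.4%, beside 26.97% on chromosome 17 and 31.3% on chromosome 8. The DNBrg1 libraries moved with it. Absence from their lists is part of the rule, so a link of the share to low DNBrg1 density is partly built in. At the all-8 sites of chromosome 18 the median log2 density shift of DNBrg1 over DNCHD4 was -0.50 without and -0.48 with tetracycline relative to all chromosomes, on chromosome 14 it was -0.40 and -0.43, and on chromosome 19 it was 0.34 and 0.26. Across the 20 chromosomes Spearman's rho between the share and this shift was -0.78 without and -0.72 with tetracycline, a description over points that share the same libraries. With the share at a density of 10 to 15 it was -0.50 and -0.40. For the parental lists rho was -0.29 and -0.08, and for DNSnf2h -0.34 and -0.32. When the DNBrg1 lists were not used to choose the sites, 4928 sites were found and rho was -0.48 with either DNBrg1 library. Then the share was 13.7% on chromosome 18, 13.99% on chromosome 14, 10.7% on chromosome 19 and 9.05% on chromosome 17. With the lists of a single line excluding sites, rho with the DNBrg1 shift was -0.93 without and -0.91 with tetracycline for DNBrg1. In the same order it was -0.46 and -0.53 for the parental line and 0.06 and 0.23 for DNSnf2h.

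**Figure D5:**
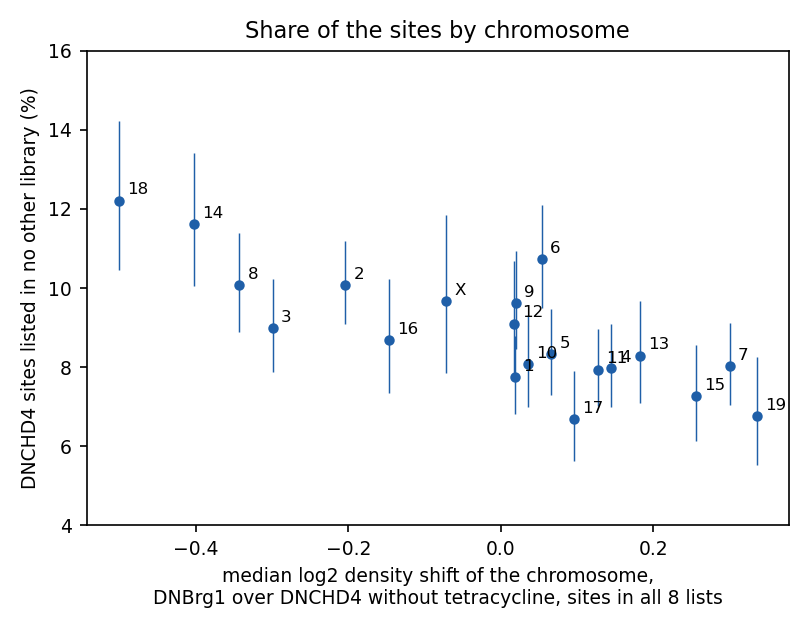
Share of DNCHD4 sites listed in no other library (y axis, %, with 95% Wilson intervals) by chromosome, against the chromosome's median log2 density shift of DNBrg1 over DNCHD4 cells without tetracycline at sites listed in all 8 libraries (x axis). Each point is a chromosome; chromosomes 18 and 14 lie at the upper left with 12.2% and 11.6%, and chromosome 19 at the right with 6.75%.

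The X chromosome held 82 of the sites, and their median log2 ratio was -0.19 (interval -0.35 to -0.02), against 0.13 (0.11 to 0.15) at the 3491 sites on autosomes. On X, 1 site (1.22%) was at least 2-fold higher without tetracycline and 7 (8.54%) at least 2-fold lower, beside 6.25% lower among all 848 DNCHD4 sites on X. On autosomes 253 (7.25%) were higher and 51 (1.46%) lower. The median density on X was 9.60 without and 10.02 with tetracycline. The gap was widest among the weakest sites: under a density of 10 the median was -0.50 at 42 X sites, against -0.11 on autosomes. DNCHD4 sites on X listed elsewhere had -0.57 there, against -0.16 on autosomes. From 10 to 12 the 25 X sites had 0.18, against 0.13 on autosomes. From 12 to 15 the 12 X sites had 0.21, against 0.28, and from 15 to 20 the 3 X sites had 0.33, against 0.46. Sites on X listed elsewhere had -0.11, -0.15 and 0.23 from 10 up in the same ranges, against -0.00, 0.05 and 0.03 on autosomes.

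Each list numbers its hotspots in genome order with gaps, so numbers are missing where hotspots were left out after numbering by a step that no header or label describes. At 2651 of the 3573 sites (74.2%) at least 1 other list has a number missing between the hotspots on either side, and at 922 (25.8%) none has. List by list the share was 38.8% in parental, 27.2% in DNBrg1 and 26.0% in DNSnf2h without tetracycline, and 60.3%, 39.3% and 23.9% with it. Along the genome as a whole, the stretches that a list leaves uncovered and where it skips a number made up 63.7% of the uncovered length in parental, 50.3% in DNBrg1 and 53.1% in DNSnf2h cells without tetracycline, and 69.5%, 56.6% and 51.2% with it, higher than at the sites in each list. Set against other DNCHD4 sites absent from the same list, the share at the sites was higher in 3 lists, DNBrg1 without (27.2% against 23.3%), DNSnf2h without (26.0% against 19.9%) and DNSnf2h with tetracycline (23.9% against 20.5%). It was lower in the other 3, parental without (38.8% against 42.6%), parental with (60.3% against 71.7%) and DNBrg1 with tetracycline (39.3% against 45.6%). These shares were not compared at equal height. The share at the sites fell with height in every list, from 55.5% under a density of 10 to 17.3% at 15 or more in parental cells without tetracycline. For any single site with a missing number, a hotspot called and then left out at that place cannot be told apart from one left out elsewhere in the interval.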

How the data were processed

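DNase-seq libraries of 8 groups, 1 library each, were used, with groups taken from the submitters' labels. Sequences were processed with CASAVA 1.6 on build mm9, as stated per the submitters' processing notes. Not given in the sources used here: which caller and filters made the hotspots, and what target the densities were scaled to. In each list the authors deposited a peak and an average tag density for each hotspot, per the file headers, as a signal (coverage density) with its own scale in each library. They also give a score (z-score) and a p-value per hotspot, both computed and deposited by the authors and not used for any result. Total depth is unknown. All peak densities of a list were whole multiples of 1 step within 0.05 tags. A tag was worth 0.196 in DNCHD4 cells without and 0.179 with tetracycline, and 0.187 to 0.586 in the other libraries. Dividing by that step gave tags.

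Hotspots sharing at least 1 bp were merged, and the tallest hotspot of a library gave the site's value there. Ratios of tags have exact binomial (Clopper-Pearson) intervals and shares have Wilson intervals, both at 95%. They describe counting error alone, because sequenced fragments carry no molecular identifiers and may be copies. Changes were counted at 2-fold. On the centred scale the median of the sites in all 8 lists was set equal. Named sites were the 6 with the highest geometric mean, the 5 highest and the 5 lowest ratios where the lower value was at least 2 times its own floor, the 3 nearest to another list's hotspot and the 3 nearest to the median. The smallest overlap outside the set, the fullest windows and the sites of the common density level were added after their values were seen. The sites, lists and rules were chosen with earlier results of these data known. Positions are those of the deposited lists on mm9. No genes or sequences are given, because no genome or annotation of that build was used here. Alternatives to the merging, floors, scale and lists were tried. The software was Python 3.11.15, with pandas 2.3.3 and numpy 2.4.6 for tables, scipy 1.17.1 for intervals and, for plots, matplotlib 3.10.9. The counting steps were tested on simulated data.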

Additional observations from a re-analysis of the deposited data

How the results depend on the processing

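The number of sites held by both DNCHD4 lists alone, 3573, depended on the density at which the lists begin. It was 579 with every list read from the highest floor up and 21 with the scales centred as well. Chosen after seeing the data, centred lists without DNSnf2h gave 258, and parental lists alone gave 800 centred and 1299 as deposited. Joining hotspots up to 150 bp apart gave 3425, merging without chaining 3587 and the higher DNCHD4 floor for both libraries 3075. Leaving out 1 other list, also chosen after seeing the data, gave 3792 to 4761, and leaving out both DNBrg1 lists 4928. The median log2 ratio of 0.13 became 0.15 with mean densities, 0.10 on the centred scale, 0.21 from the higher DNCHD4 floor up and 0.20 from 2 times that floor up, positive in each. All of these keep the deposited scale or shift it by 0.03. In tags the median was 60 in both DNCHD4 libraries, so the sign depends on that scale. The count of sites at least 2-fold higher without tetracycline stayed between 223 and 333. The 58 sites at least 2-fold lower became 152 with mean densities and 11 from the higher DNCHD4 floor up. The 2 sites 2-fold above every floor became 0 on the centred scale, 0 with the lowest density within 50 kb as the floor and 0 outside dense clusters. The 396 sites 2-fold above the floors without tetracycline became 3, 103 and 243 under the same alternatives and 214 without missing numbers; these were chosen after seeing the data. The cause of these shifts was not tested beyond what each alternative changes. Of 38 checks on named sites 1 moved, chr17:67614011-67614575, and none changed sign. No paired analysis was possible because each group has 1 library. At the median of 60 tags a density is known to 12.9%, and a density under a list's floor is not known at all.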
